A study of Mus musculus with 26 samples.

Results

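The 10 genes followed here mark enteroendocrine cells, the hormone-secreting cells of the gut epithelium, in the mouse colon during inflammation-driven tumorigenesis. They were chosen by symbol and not by a threshold on measured values, and are the granins Chga and Chgb, the L cell peptides Gcg, Pyy and Insl5, the peptides Cck, Sct and Sst, the serotonin-synthesis enzyme Tph1 and the transcription factor Neurod1. They are 10 of 35975 genes whose transcripts were counted, and all 10 passed the filter on low counts that left 17063 genes for testing. Wild-type C57BL/6J male mice, about 10 weeks old at the start, received a standard (STD) diet or a diet with GW3965, a synthetic agonist of the liver X receptor (LXR). Mice of days 22, 43 and 70 were injected with azoxymethane (AOM, 10 mg per kg), a colon carcinogen, and then drank dextran sodium sulfate (DSS), which injures the epithelium, with 3 mice per diet and day. Day 22 followed the first of 3 DSS cycles, day 43 the second and day 70 the third. Day 0 mice had neither AOM nor DSS but had been on their diet for 22 or 43 days, with 2 mice each, so that there were 4 per diet. RNA came from biopsies of the distal colon, which the methods place in areas that correspond to tumours.

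Enteroendocrine cells are rare, scattered cells that arise from crypt stem cells and sense the contents of the gut lumen. They store peptide hormones in granules built around the granins and release them towards nerves and blood vessels. In the colon, the main types are L cells, which make peptide YY, proglucagon-derived peptides and insulin-like peptide 5, enterochromaffin cells, which make serotonin, and somatostatin-secreting D cells. In whole tissue, fewer cells of a type and less RNA per cell cannot be told apart.

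The 26 libraries held 18195345 to 41522204 estimated counts, with a median of 20424701. The deepest was STD day 43 replicate 1, which also had an RNA integrity number of 2.6, whereas the other libraries had 6.8 to 10. At day 43 the numbers were 2.6, 8.4 and 7.8 in STD and 8, 6.8 and 9.3 in GW3965. The libraries of the other days had 9.1 to 10. Counts on the 88 ribosomal protein genes took 3.96 to 18.6% of a library and were highest at day 43. The LXR target gene Abcg1 was at 7.38 to 26.8 CPM (counts scaled to equal library size) in the STD libraries and at 71.4 to 179 CPM in the GW3965 libraries, so the groups labelled by diet did not overlap, nor did those of Abca1. One day 0 library carried GW3965 in its title and STD in its diet label. It was placed by its title and had 76.5 CPM of Abcg1. Each diet had its own cage at day 0 and another for days 22 and 43, while every day 70 mouse came from a cage of its own, so diet and cage cannot be told apart before day 70, and the day 0 mice differ in cage from all others. No day 0 mouse is labelled with 70 days of diet, so at day 70 the treatment cannot be told apart from age and time on the diet. P-values measure the spread between libraries, treated here as single mice, some of which shared a cage. The study's reporting summary describes bulk RNA-seq samples as pools of biological replicates, whereas its figure legend counts mice per timepoint. Whether a library holds 1 mouse or a pool is therefore not settled.

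Promoter windows are shown for Gcg, Pyy, Cck and Tph1, and a shorter one for Sst. Among the factors that act there, NEUROD1 binds E-boxes, and the cyclic AMP response element (CRE) is known from hormone genes. RefSeq promoter entries (GRCm38.p6) were found for all 10 members, and 250 bases before the transcript start are printed 5′ to 3′ on the strand of the gene. Capitals mark CAGATG, the half-CRE TGACG and the TATA box TATAAA, each searched on both strands. For Sst, whose RefSeq start lies inside the longer annotated transcript, the 28 bases around its CRE (TGACGTCA, in capitals) are shown. Gcg and Pyy are L cell peptides with closely related levels, Cck was called higher at day 43 in both diets, and Tph1 was called lower at day 70 in both.
Gcg, chr2:62483654-62483903, minus strand: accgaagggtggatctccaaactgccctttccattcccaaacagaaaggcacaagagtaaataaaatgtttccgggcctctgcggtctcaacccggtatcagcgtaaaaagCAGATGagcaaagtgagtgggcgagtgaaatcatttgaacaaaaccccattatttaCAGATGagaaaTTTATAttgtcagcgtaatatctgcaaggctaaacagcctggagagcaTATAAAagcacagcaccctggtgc
Pyy, chr11:102107833-102108082, minus strand: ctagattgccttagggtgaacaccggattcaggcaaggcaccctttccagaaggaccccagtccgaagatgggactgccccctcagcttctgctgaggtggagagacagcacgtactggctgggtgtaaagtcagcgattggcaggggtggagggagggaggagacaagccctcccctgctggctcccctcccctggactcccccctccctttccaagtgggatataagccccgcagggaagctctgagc
Cck, chr9:121495695-121495944, minus strand: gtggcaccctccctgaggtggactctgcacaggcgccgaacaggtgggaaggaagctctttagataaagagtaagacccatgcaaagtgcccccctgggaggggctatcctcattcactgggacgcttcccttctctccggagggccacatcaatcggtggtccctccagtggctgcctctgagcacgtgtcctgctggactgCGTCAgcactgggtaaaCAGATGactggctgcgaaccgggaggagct
Tph1, chr7:46672538-46672787, minus strand: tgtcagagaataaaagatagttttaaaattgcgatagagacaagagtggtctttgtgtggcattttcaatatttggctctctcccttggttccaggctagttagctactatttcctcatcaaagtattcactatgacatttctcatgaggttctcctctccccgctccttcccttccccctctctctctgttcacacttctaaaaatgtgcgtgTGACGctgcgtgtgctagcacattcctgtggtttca
Sst, chr16:23890875-23890902, minus strand: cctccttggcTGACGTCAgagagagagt

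The Gcg window held 2 copies of CAGATG and 2 TATA boxes, the Cck window had 1 copy of CAGATG and 1 half-CRE, the Tph1 window had 1 half-CRE, and the Pyy window had none of these letters. Among the 10 members, 4 had CAGATG in at least 1 promoter entry, against 16.3% of 27025 genes. The full CRE, TGACGTCA, which contains the half-CRE, was in the windows of 2 members, Chgb and Sst, against 1.77% of genes. The half-CRE was found in 5 members against 19.8% of genes, and TATAAA in 3 against 14.3%. These matches describe letters, not binding.

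Without AOM and DSS, Pyy was the most abundant member. On the scale of TPM, which allows for transcript length, the STD day 0 mean of Pyy was 662 ± 279.5 (SD, n = 4). Insl5 followed at 168 ± 73.5 TPM, and Gcg, Chgb and Chga were at 40.6 ± 18.4, 36.1 ± 13.3 and 28.2 ± 7.30 TPM. Sst, at 18.6 ± 4.82 TPM, and Sct, at 16.3 ± 7.76 TPM, differed by less than their spread. Tph1 was at 9.13 ± 3.64 TPM, Cck at 2.49 ± 1.08 TPM and Neurod1 at 0.882 ± 0.405 TPM. Gcg and Chgb differed by less than their spread, and in GW3965 day 0 Chgb was the higher, at 37.45 ± 8.39 TPM against 30.07 ± 5.58 TPM (n = 4). Of the Pyy level, 47.8% ± 5.53 in STD day 0 was assigned to a transcript annotated as a retained intron, and 47.35% ± 2.96 (n = 3) in STD day 70. Libraries are compared from here on by CPM scaled with TMM factors.

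When the 8 groups were ordered by mean CPM, neighbouring groups rarely separated. For 8 of the members, the ranges of all 7 neighbouring pairs overlapped. Insl5 had 6 overlapping pairs of 7 and Sst 5 of 7. Neighbours in this order have the closest means by construction, so overlap between them is likely for any gene. The share of such overlaps over all genes is not given. Cck was the member with its lowest mean in GW3965 day 0, and 6 members had their highest mean in one of the day 0 groups. Groups far apart in the order are compared below.

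**Figure D1:**
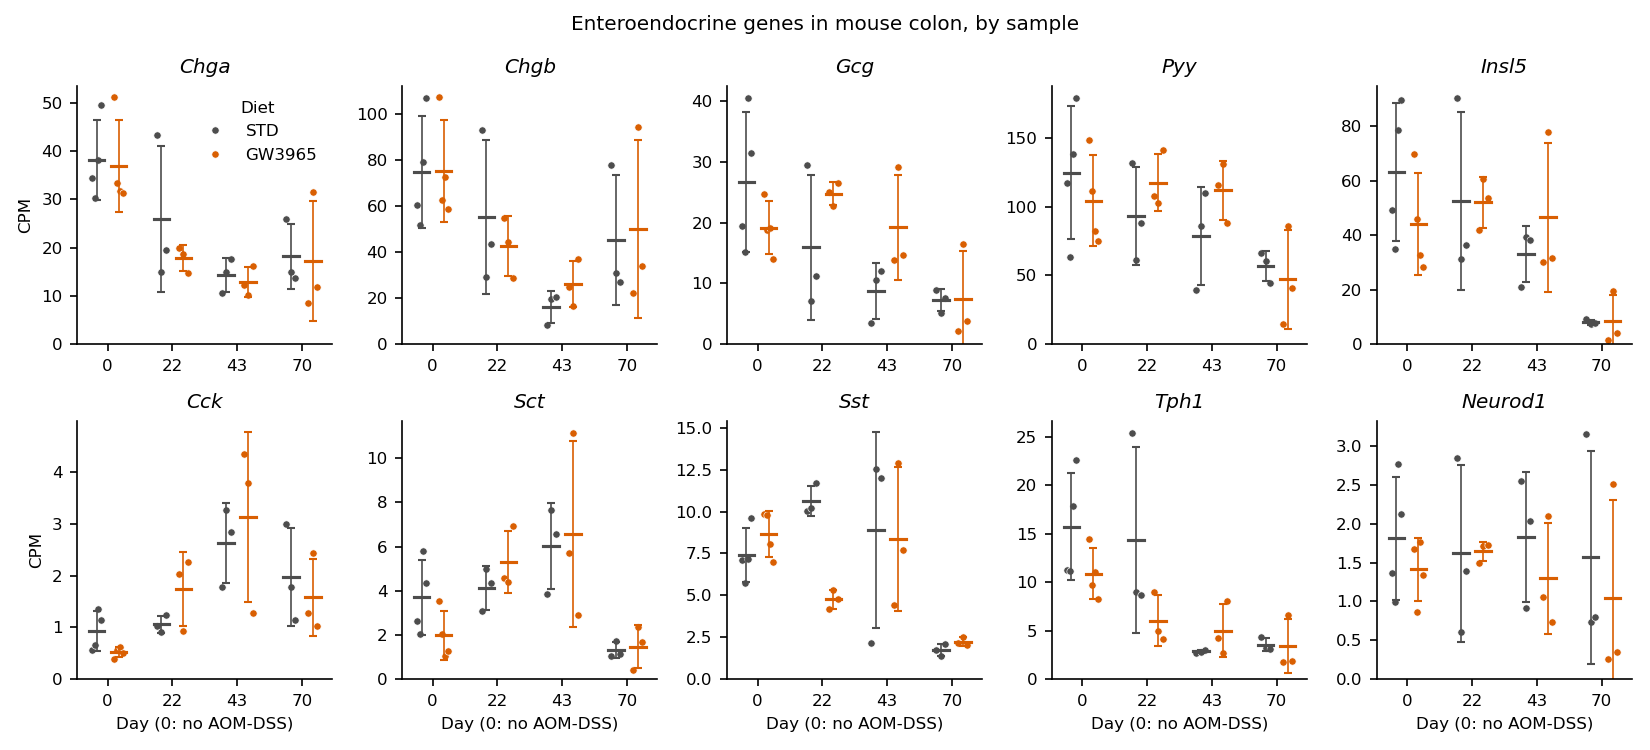
CPM of each member (vertical axis, linear from 0) by day (horizontal axis) in 26 libraries, with STD in grey and GW3965 in orange. Points are libraries, thick lines are means and thin bars are SD (cut at 0), and Insl5, Sst and Tph1 at day 70 lie below every day 0 library.

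At day 70, after the third DSS cycle, more members were called lower than higher against day 0 in both diets. In the STD diet, 6 of the 10 members fell (false-discovery rate (FDR) under 0.05, edgeR quasi-likelihood test with Benjamini–Hochberg adjustment over all 17063 genes) and none rose, while 13.7% of all genes were called lower and 16.7% higher. In the GW3965 diet, 4 members fell and 1 rose, beside 6.82% of genes called lower and 14.7% higher. The median log2 fold change of the 10 members was -1.31 in STD and -1.12 in GW3965, where the medians of all genes were 0.04 and 0.11. Chga, Insl5, Sst and Tph1 were called lower in both diets. The day 70 and day 0 groups did not overlap for 6 members in STD and 4 in GW3965, beside 43.1% and 31.3% of all genes. Days 22, 43 and 70 of a diet share their day 0 mice, so these comparisons are not independent of each other.

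Among the L cell peptides, Insl5 (insulin-like peptide 5, an orexigenic hormone of colonic L cells, chr4:103017872-103026842) fell the most. Its CPM in STD was 49.2, 34.99, 78.6 and 89.5 at day 0 and 9.15, 7.31 and 7.78 at day 70. In GW3965 it was 69.8, 45.8, 32.6 and 28.5 at day 0 and 1.54, 19.7 and 3.99 at day 70. All day 70 libraries were below all day 0 libraries in both diets. The log2 fold change was -2.96 ± 0.64 (SE) in STD with an adjusted p of 0.00176, and -2.39 ± 0.62 in GW3965 with an adjusted p of 0.00866 (edgeR). In STD this call was kept in all 7 fits that left out 1 library. In GW3965 it was lost without day 70 replicate 3 (log2 fold change -2.06, adjusted p 0.0508) and in a fit of the 2 groups only (-2.48, adjusted p 0.0744).

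Gcg (proglucagon, the precursor of GLP-1 and GLP-2, chr2:62474530-62483650) was at 19.5, 15.1, 40.5 and 31.5 CPM in STD day 0 and at 8.94, 5.22 and 7.69 CPM in STD day 70, with no overlap. Its log2 fold change was -1.87 ± 0.58 with an adjusted p of 0.0193 (edgeR). The call was lost without STD day 70 replicate 2 (adjusted p 0.0822), STD day 70 replicate 3 (adjusted p 0.054) or STD day 0 replicate 1 of 43 diet days (adjusted p 0.0528). In GW3965, Gcg gave a log2 fold change of -1.35 ± 0.57 with an adjusted p of 0.0961. Its day 70 values there were 2.25, 16.4 and 3.85 CPM against 14.02 to 24.8 CPM at day 0, so the groups overlapped through replicate 2. Pyy (peptide YY, which slows gut transit and reduces appetite, chr11:102106676-102107832) was not called in either diet. Its log2 fold changes were -1.13 ± 0.45 in STD and -1.14 ± 0.45 in GW3965, with adjusted p of 0.0606 and 0.0712 (edgeR).

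Sst (somatostatin, the inhibitory hormone of D cells, chr16:23889573-23890958) fell in both diets as well. Its STD libraries had 7.11, 5.76, 7.19 and 9.61 CPM at day 0 and 1.74, 1.35 and 2.11 CPM at day 70. The GW3965 libraries had 9.83, 9.79, 8.07 and 7.01 CPM at day 0 and 2.15, 2.54 and 2.01 CPM at day 70. The 6 day 70 libraries lay in a narrow range below all 8 day 0 libraries. The log2 fold change was -2.09 ± 0.43 in STD with an adjusted p of 0.00134, and -1.95 ± 0.43 in GW3965 with an adjusted p of 0.00268 (edgeR), and both calls were kept in all 7 fits that left out 1 library. When libraries were scaled by 8 epithelium genes in place of TMM, the GW3965 value was -1.18 with an adjusted p of 0.11, a scaling under which the median of all genes moved to 0.90.

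Sct (secretin, which stimulates bicarbonate secretion, chr7:141278330-141279133) fell in STD from 2.64, 2.03, 5.79 and 4.36 CPM at day 0 to 1.05, 1.74 and 1.14 CPM at day 70. The groups did not overlap and the log2 fold change was -1.49 ± 0.55 with an adjusted p of 0.043 (edgeR). That call was kept in 2 of 7 fits that left out 1 library, without STD day 0 replicates 1 and 2 of 22 diet days, and the adjusted p of the other 5 was 0.0577 to 0.128. In GW3965 the Sct log2 fold change was -0.41 ± 0.53 (adjusted p 0.626). Cck (cholecystokinin, a satiety hormone better known from the small intestine, chr9:121489824-121495694) went the other way. In GW3965 it was at 0.393, 0.563, 0.618 and 0.497 CPM at day 0 and at 1.28, 2.43 and 1.02 CPM at day 70, all above the day 0 libraries. The log2 fold change was 1.60 ± 0.47 with an adjusted p of 0.0181 (edgeR). It was lost without GW3965 day 70 replicate 2 (1.13, adjusted p 0.118) or GW3965 day 0 replicate 1 of 22 diet days (1.49, adjusted p 0.0537). In STD, Cck had a log2 fold change of 1.07 ± 0.46 with an adjusted p of 0.0799. Cck rests on 8 to 74 counts per library.

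Tph1 (tryptophan hydroxylase 1, the rate-limiting enzyme of serotonin synthesis outside the brain, chr7:46644641-46672537) fell in both diets. Its STD values were 11.3, 11.2, 17.9 and 22.6 CPM at day 0 and 4.36, 3.18 and 3.13 CPM at day 70. In GW3965 they were 14.4, 9.74, 11.03 and 8.25 CPM at day 0 and 1.74, 6.59 and 1.87 CPM at day 70. No day 70 library reached its diet's day 0 range. The log2 fold change was -2.14 ± 0.50 in STD with an adjusted p of 0.00292, kept in all 7 fits that left out 1 library. In GW3965 it was -1.67 ± 0.49 with an adjusted p of 0.0178, lost without GW3965 day 70 replicate 1 (-1.37, adjusted p 0.0823) or GW3965 day 70 replicate 3 (-1.38, adjusted p 0.0917) (edgeR). It was also lost with the epithelium scaling (-1.18, adjusted p 0.0628) and in a fit of the 2 groups only (-1.76, adjusted p 0.0542).

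The granins are general markers of endocrine granules. Chga (chromogranin A, chr12:102554969-102565028) had 34.4, 30.4, 38.3 and 49.6 CPM in STD day 0 and 25.97, 14.98 and 13.7 CPM in STD day 70, a log2 fold change of -1.07 ± 0.39 with an adjusted p of 0.0439 (edgeR). The GW3965 fold change was -1.10 ± 0.39 with an adjusted p of 0.0499, although its day 70 libraries, at 8.45, 31.5 and 11.8 CPM, overlapped the day 0 range through replicate 2. Both calls were close to the threshold and each was kept in 1 of 7 fits that left out 1 library, with an adjusted p of up to 0.156 in STD and 0.202 in GW3965. The ones that kept it left out STD day 70 replicate 1 and GW3965 day 70 replicate 2. Chgb (chromogranin B, chr2:132781278-132795079) was not called at day 70 in either diet, with log2 fold changes of -0.72 ± 0.49 and -0.59 ± 0.49. Neurod1 (a transcription factor of endocrine differentiation, chr2:79452521-79456751) was at 0.256 to 3.15 CPM across the day 70 libraries and was not called in any comparison. Its day 70 log2 fold changes were -0.22 ± 0.68 in STD and -0.43 ± 0.69 in GW3965, and its annotation overlaps Cerkl on the same strand and a non-coding gene on the other.

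Single libraries weighed on the day 70 counts. Leaving out STD day 0 replicate 1 of 43 diet days, STD day 70 replicate 2 or STD day 70 replicate 3 left 3 called members each in STD. In GW3965, leaving out day 70 replicate 3 left 2, day 70 replicate 1 or day 0 replicate 1 of 22 diet days left 3 each, and leaving out day 70 replicate 2 gave 7. Replicate 1 of GW3965 day 70 had the lowest summed level of the 8 epithelium genes in that group, 2879 CPM against 9834 and 10200 CPM, and the lowest summed level of the members, 55.4 CPM against 264 and 101 CPM. The part of epithelial content in the members' values was not tested. The day 70 counts were 6 and 5 also with the ribosomal percentage in the fit. The shares of all genes called in these other fits are not given.

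**Figure D2:**
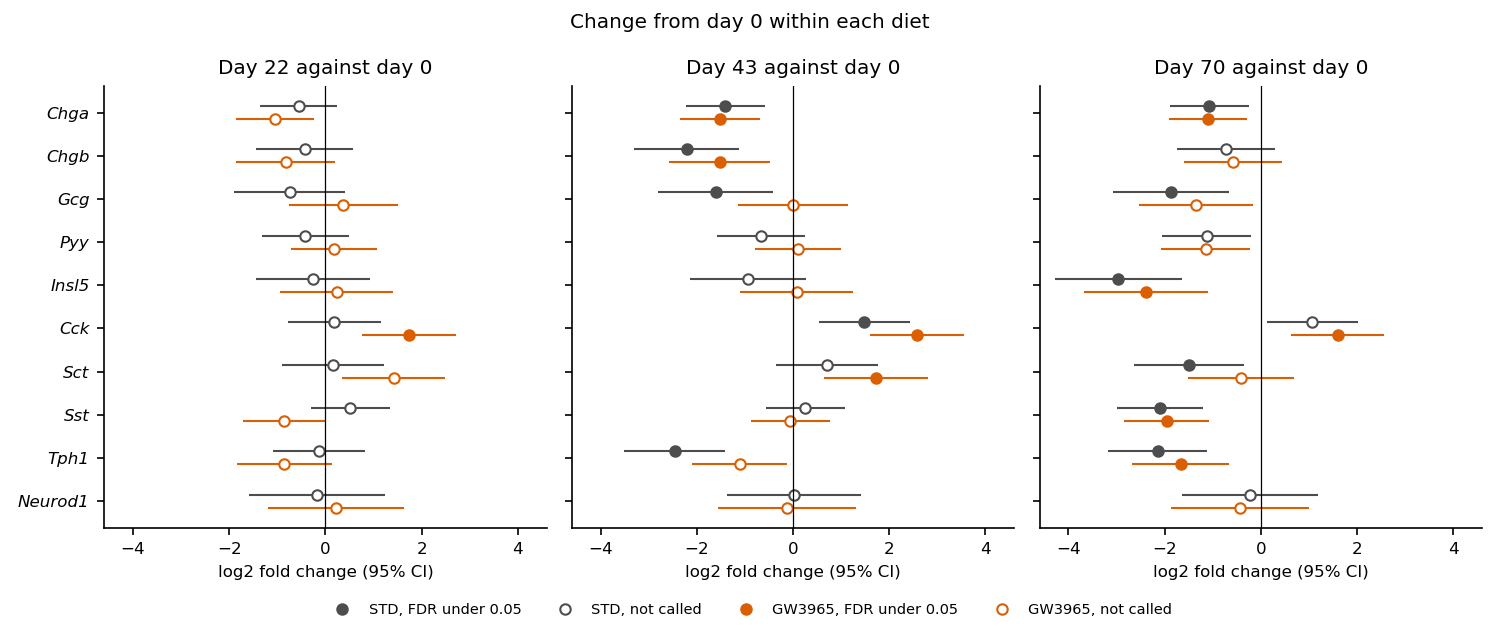
Log2 fold change against day 0 of the same diet (horizontal axis) for the 10 members at days 22, 43 and 70, with STD in grey, GW3965 in orange and bars for the 95% confidence interval. Filled points passed an FDR of 0.05, and at day 70 all 4 filled orange points left of 0 have a filled grey point beside them.

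At day 43, after the second DSS cycle, members moved in both directions. In STD, Chga, Chgb, Gcg and Tph1 fell and Cck rose, 4 lower and 1 higher of 10, while 24.2% of all genes were called lower and 30.8% higher. Tph1 reached its lowest group mean, with 2.73, 2.84 and 3.00 CPM against 11.2 to 22.6 CPM at day 0, a log2 fold change of -2.46 ± 0.51 with an adjusted p of 0.000376 (edgeR). Chgb, at 8.27, 19.6 and 20.6 CPM against 52.0 to 107 CPM, fell by 2.21 ± 0.52 on the log2 scale (adjusted p 0.00134). Chga fell by 1.41 ± 0.40 (adjusted p 0.00518), and Cck rose to 1.77, 3.27 and 2.84 CPM from 0.565 to 1.36 CPM (log2 fold change 1.48 ± 0.46, adjusted p 0.00909). The 3 libraries of STD day 43 were all outside the day 0 range for these genes. In this comparison the groups did not overlap for 5 members, as for 48.4% of all genes. Gcg had a log2 fold change of -1.61 ± 0.58 (adjusted p 0.0227), and was not called without STD day 43 replicate 1, the library with the low RNA integrity number (-1.23, adjusted p 0.105) or STD day 0 replicate 1 of 43 diet days (adjusted p 0.0691).

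In GW3965 at day 43, Chga and Chgb fell and Cck and Sct rose, 2 in each direction, beside 19.3% of all genes lower and 26% higher. Cck was at 4.35, 3.79 and 1.27 CPM against 0.393 to 0.618 CPM at day 0, the largest rise of a member (log2 fold change 2.58 ± 0.47, adjusted p 0.000233). Sct was at 5.70, 11.2 and 2.89 CPM against 1.06 to 3.54 CPM, a log2 fold change of 1.73 ± 0.52 (adjusted p 0.010), lost without GW3965 day 43 replicate 2 (1.08, adjusted p 0.138). Chga fell by 1.52 ± 0.40 (adjusted p 0.00431) and Chgb by 1.53 ± 0.51 (adjusted p 0.0187) on the log2 scale. Chgb lost its call without GW3965 day 43 replicate 1 (adjusted p 0.0604), GW3965 day 43 replicate 2 (adjusted p 0.0901) or GW3965 day 0 replicate 1 of 22 diet days (adjusted p 0.0533), and without GW3965 day 43 replicate 2 the group had 2 calls. The share of all genes called without that library is not given. Gcg, Pyy and Insl5 had log2 fold changes of 0.00 ± 0.55, 0.10 ± 0.43 and 0.08 ± 0.57 in GW3965.

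The ribosomal percentage was 10.0 to 18.6 at day 43 and 3.96 to 10.7 in the other libraries. With that percentage as a term in the fit, none of the members kept a day 43 call in either diet. The share of all genes called in that fit is not given, so the loss cannot be read as particular to the members. In STD the log2 fold change of Tph1 then moved from -2.46 to -0.19, that of Chga to 0.01 and that of Chgb to -0.01, while Cck was at 0.91 and Gcg at -1.81. In GW3965 the values were -0.57 for Chga, -0.09 for Chgb, 0.28 for Sct and 2.13 for Cck. Day and ribosomal percentage cannot be told apart at day 43. The lowest RNA integrity numbers were also those of day 43 libraries, in both diets, and a term for that number was not fitted.

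At day 22, after the first DSS cycle, no member was called in STD by edgeR or DESeq2 and none had an unadjusted p under 0.05, where 7.56% of genes were higher and 1.99% lower. In GW3965 only Cck was called, higher, beside 13.7% of genes higher and 7.05% lower. It was at 2.03, 0.927 and 2.27 CPM against 0.393 to 0.618 CPM (log2 fold change 1.74 ± 0.47, adjusted p 0.0123, edgeR) and was not called without GW3965 day 22 replicate 3 (1.498, adjusted p 0.0744). Groups did not overlap for 5 members in GW3965 at day 22, as for 48.2% of all genes. Of these, Chga (log2 fold change -1.05 ± 0.39, adjusted p 0.0608), Chgb (-0.82 ± 0.49, 0.24), Sct (1.42 ± 0.52, 0.0542) and Sst (-0.86 ± 0.41, 0.134) missed the threshold. The DESeq2 Wald test called 3 members in this comparison, and a fit of these 2 groups only called 6. The shares of all genes called in those fits are not given, so these counts cannot be set beside them. Leaving out GW3965 day 0 replicate 1 of 22 diet days gave 2 calls. Against the 2 day 0 mice with the same 22 diet days, none was called. Shares of all genes are not given for these fits either.

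From day 22 to day 43 in STD, Cck rose and Chgb and Tph1 fell, with 18% of genes higher and 15.7% lower. Tph1 went from 25.4, 9.02 and 8.68 CPM to 2.73, 2.84 and 3.00 CPM (log2 fold change -2.33 ± 0.52, adjusted p 0.00205, edgeR). The Cck call (adjusted p 0.0477) was kept in 1 of 6 fits that left out 1 library, the one without STD day 43 replicate 1. The Chgb call (adjusted p 0.0146) was lost without STD day 22 replicate 1 (adjusted p 0.13) or STD day 43 replicate 1 (adjusted p 0.0722). Without STD day 22 replicate 1 only Tph1 was called. With the ribosomal percentage in the fit none of the 3 was called, and the log2 fold changes were -0.30 for Tph1, 0.20 for Chgb and 0.80 for Cck. The shares of all genes called in this fit or without a library are not given. In GW3965 no member was called from day 22 to day 43, none had an unadjusted p under 0.05, and DESeq2 called none. Few genes were called at all in that step, 0.229% higher and 0.0352% lower.

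From day 43 to day 70, Insl5, Sct and Sst fell in both diets. In STD, 3 members were lower and Chgb was higher, against 26.7% and 23% of all genes, and in GW3965 4 members were lower, with Pyy as the fourth, and none higher, against 17.9% and 21.3%. Sst fell by 2.35 ± 0.45 in STD and by 1.90 ± 0.44 in GW3965 on the log2 scale, with adjusted p of 0.000261 and 0.00207 (edgeR). Insl5 fell by 2.03 ± 0.64 and 2.46 ± 0.64, and Sct by 2.19 ± 0.58 and 2.14 ± 0.58, the latter lost without GW3965 day 43 replicate 2 (-1.52, adjusted p 0.0639). These 3 genes had not been called lower at day 43 in either diet. The rise of Chgb in STD, a log2 fold change of 1.49 ± 0.53 (adjusted p 0.0252), was lost without STD day 43 replicate 1 (1.17, adjusted p 0.0994) or STD day 70 replicate 1 (0.83, adjusted p 0.235). The fall of Pyy in GW3965 (-1.24 ± 0.47, adjusted p 0.0402) was kept in 2 of 6 fits that left out 1 library, those without GW3965 day 43 replicate 3 or day 70 replicate 2. Without GW3965 day 43 replicate 2 the GW3965 count was 2, and without GW3965 day 70 replicate 2 it was 8. With the ribosomal percentage in the fit, no member was called in this step, and the log2 fold changes in STD and GW3965 were -1.89 and -1.46 for Sst, -1.67 and -2.11 for Insl5, and -0.50 and -0.46 for Sct. Chgb in STD then had -0.76 and Pyy in GW3965 -1.08. The shares of all genes called with the ribosomal percentage or without a library are not given for this step.

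Whether the LXR agonist changed the members was tested at each day, with the ribosomal percentage in the fit. The methods of the study correct for ribosomal RNA, and the share of ribosomal protein genes stands in for it here. No member was called at day 0, 22, 43 or 70, where 0.0293%, 0.135%, 0.0293% and 1.83% of all genes were called in either direction. DESeq2 called none either, and unadjusted p-values under 0.05 were found for 2 members at day 22 and none at the other days. At day 70 the log2 differences between GW3965 and STD ran from -0.53 to 0.43. Insl5 differed by 0.12, with a 95% confidence interval from -1.25 to 1.49, Tph1 by -0.37 (-1.31 to 0.56) and Sst by 0.43 (-0.52 to 1.39). Intervals of this width leave room for differences of more than 2-fold in either direction for Insl5. The widest interval at day 70 was that of Neurod1, from -2.12 to 1.05.

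The members with unadjusted p under 0.05 were Sst and Tph1 at day 22. Sst was at 10.1, 10.2 and 11.7 CPM in STD and at 4.17, 5.32 and 4.80 CPM in GW3965, without overlap, a log2 difference of -1.20 ± 0.44 with an unadjusted p of 0.0131 and an adjusted p of 0.328 (edgeR). Every STD library of day 22 was above all STD day 0 libraries for Sst, and every GW3965 library of day 22 was below all GW3965 day 0 libraries. Of all genes, 26.9% did not overlap between day 22 and day 0 in STD, and 48.2% in GW3965. Set against the day 0 diet contrast, the day 22 contrast of Sst shifted by -1.41 ± 0.57 on the log2 scale, with an unadjusted p of 0.0229 and an adjusted p of 0.698. Tph1 was at 25.4, 9.02 and 8.68 CPM in STD and at 9.04, 4.93 and 4.12 CPM in GW3965 at day 22, a log2 difference of -1.04 ± 0.44 (adjusted p 0.414). Gcg at day 43 was at 3.57, 10.7 and 12.1 CPM in STD and at 13.9, 29.2 and 14.7 CPM in GW3965, again without overlap, but its difference of 1.18 had an interval from -0.17 to 2.52 (adjusted p 0.619). The diet groups did not overlap for 1 member at day 22 and 1 at day 43, beside 23.6% and 10.9% of all genes. The day 43 means of Gcg were 19.3 CPM in GW3965 and 8.78 CPM in STD. Those of Chgb were 26.1 and 16.2 CPM, but with the ribosomal term in the fit its log2 difference was -0.02.

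The diet effect was also compared between days. Against day 0, no member was called for any later day, with or without the ribosomal term or by DESeq2, and 2 had an unadjusted p under 0.05. The share of all genes called was 0.0234% for day 22 and 0% for both later days. These 2 were Sst, given above, and Cck at day 22 (1.499 ± 0.67, unadjusted p 0.0376, adjusted p 0.750). Falls called in one diet and not in the other, such as Gcg and Sct at day 70, were thus not shown to differ between the diets.

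**Figure D3:**
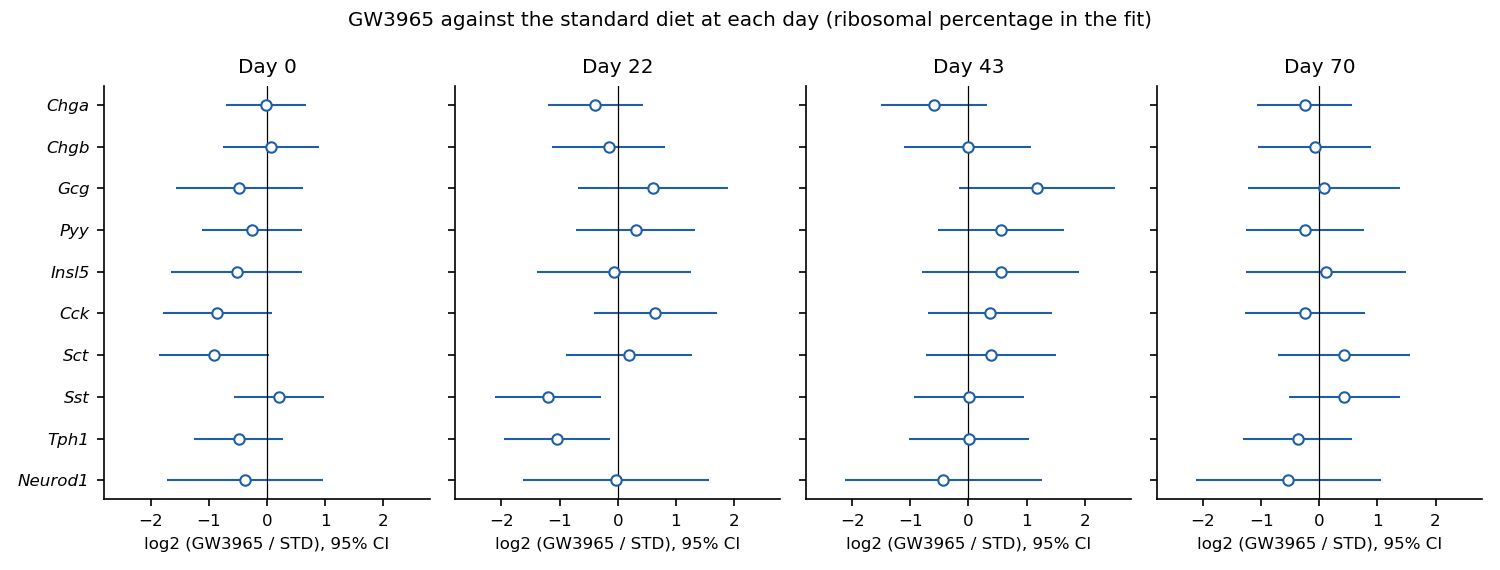
Log2 difference between GW3965 and STD (horizontal axis) with its 95% confidence interval for the 10 members at days 0, 22, 43 and 70, from the fit with the ribosomal percentage. No member passed an FDR of 0.05, and only Sst and Tph1 at day 22 have intervals that leave out 0.

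Ratios between members were compared because a ratio within a library does not depend on its scaling. The log2 ratio of Insl5 to Pyy was -0.98 ± 0.20 (SD, n = 4) at day 0 and -2.81 ± 0.26 (n = 3) at day 70 in STD, and -1.28 ± 0.14 and -2.92 ± 0.69 in GW3965. All day 70 libraries were below all day 0 libraries of their diet in this ratio, whereas at days 22 and 43 the ranges overlapped. The log2 ratio of Tph1 to Chga at day 70 also lay below the day 0 libraries, with differences of -0.99 in STD and -0.63 in GW3965, and in STD the day 43 difference was -0.98. The log2 ratio of Sst to Chga differed from day 0 without overlap by 1.23 at day 22 and -0.99 at day 70 in STD, and by 1.34 at day 43 in GW3965. The ratio of Gcg to Pyy was apart at day 43 in STD (-0.99) and overlapped at day 70 in both diets. A two-sided exact permutation test of 3 against 4 libraries cannot give less than 0.0571, which was the value of each of these comparisons without overlap, and 0.152 after adjustment over the 24 ratio comparisons, so none passed.

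**Figure D4:**
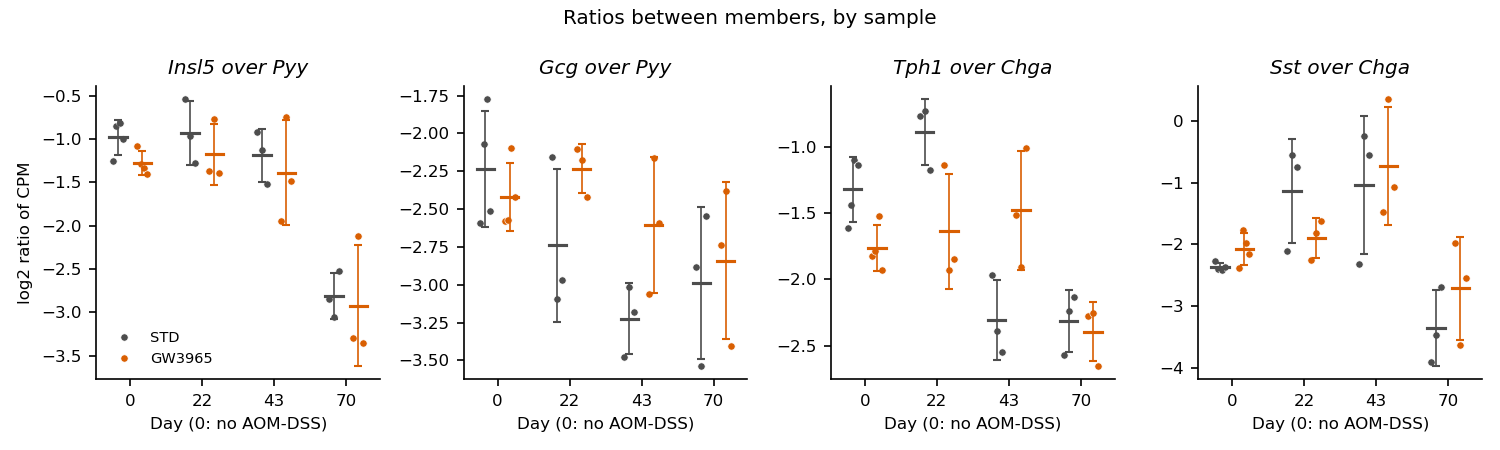
Log2 ratio of CPM between pairs of members (vertical axes, not from 0) by day, with STD in grey and GW3965 in orange. Points are libraries, lines are means and bars are SD, and the day 70 libraries lie lowest in the ratio of Insl5 to Pyy.

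Other genes of the endocrine programme were taken from a list of 46, of which 41 could be tested. In STD at day 70, 17 fell and 7 rose, with a median log2 fold change of -1.12, and in GW3965 13 fell and 2 rose, with a median of -0.82. Of all genes, 13.7% were lower and 16.7% higher in STD, and 6.82% and 14.7% in GW3965. The lowest median, -2.16 in STD and -1.15 in GW3965, was that of the 12 genes of prohormone processing and secretory granules. Of these, 10 fell in STD and 8 in GW3965 and none rose. Syp (synaptophysin, a vesicle protein) went from 8.78 to 1.40 CPM in STD (log2 fold change -2.64) and from 9.03 to 3.63 CPM in GW3965 (-1.32). Resp18, a granule protein, changed by -3.30 and -2.44, and Scg5, the chaperone of prohormone convertase 2, by -2.02 and -1.43. Pcsk1, the prohormone convertase that cleaves proglucagon in L cells, was called in both diets with smaller values of -0.80 and -1.07. Pcsk1 was named after its values were seen.

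Of the 5 genes of amine synthesis and transport, 3 fell and 1 rose in STD and 2 fell in GW3965 at day 70. Maob, which breaks down amines, changed by -2.54 in STD and -1.17 in GW3965. Of the other members of this group, Slc6a4, the serotonin transporter, fell in both diets (-3.02 and -2.03), Slc18a2 fell in STD (-1.37) and Slc18a1, a vesicular amine transporter, rose in STD (1.70). Of 11 transcription factors, 2 fell and 1 rose in each diet. Isl1 rose in both (2.43 and 2.18), Etv1 (-2.25) and Pax6 (-2.02) fell in STD, and Foxa2 (-1.48) and Nkx2-2 (-1.85) in GW3965. Neurog3, the factor that commits progenitors to the endocrine lineage, was not called in either diet. Of the 4 other hormones, Nts (neurotensin) rose in both diets, by 2.87 in STD and 3.57 in GW3965 on the log2 scale, and Iapp rose in STD (3.98). Of the 9 receptors, Gpbar1 (a bile acid receptor) fell in both diets, Ffar3 fell and Ffar2, Ffar4 and Trpa1 rose in STD. Syp, Maob, Resp18, Scg5 and Etv1 had the smallest p in STD and Syp, Resp18, Nts, Scgn and Scg5 in GW3965, and the other genes of this paragraph were named after their values were seen. With the epithelium scaling, 14 of the list fell and 3 rose in STD, and 3 fell and 3 rose in GW3965. The shares of all genes called with that scaling are not given, so these counts cannot be read as particular to the list.

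The same list had 15 lower and 6 higher in STD at day 43, beside 24.2% of all genes lower and 30.8% higher. In GW3965 it had 16 lower and 4 higher, beside 19.3% and 26%. With the ribosomal term the list had 0 and 0 in STD, and 0 lower and 1 higher in GW3965. The shares of all genes called in this and the other changed fits of this paragraph are not given, so those list counts cannot be set beside them. At day 22 the list had 2 lower and 4 higher in STD, where 1.99% of all genes were lower and 7.56% higher. In GW3965 it had 11 lower and 3 higher, where 7.05% of all genes were lower and 13.7% higher. The GW3965 count of lower genes became 5 with the ribosomal term, 0 with the epithelium scaling and 0 against day 0 mice of the same diet days, where none was higher either. Between diets, 3 of the 41 were called at day 70, all higher in GW3965: Syp (log2 difference 1.39, adjusted p 0.0104), Pcsk2 (2.39, adjusted p 0.0426) and Etv1 (1.39, adjusted p 0.0495, edgeR). None were called at the other days. Of all genes, 1.83% were called between the diets at day 70. The list count there was 0 in a fit of the 2 groups only and with a replicate block, and 1 with no filter. It was 2 with DESeq2 size factors, 4 without the ribosomal term and 6 with the epithelium scaling, all higher. Leaving out the library of low RNA integrity gave 4 higher and 1 lower, and the DESeq2 Wald test 5 higher and 2 lower. That test also called 1 higher and 3 lower at day 22.

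**Figure D5:**
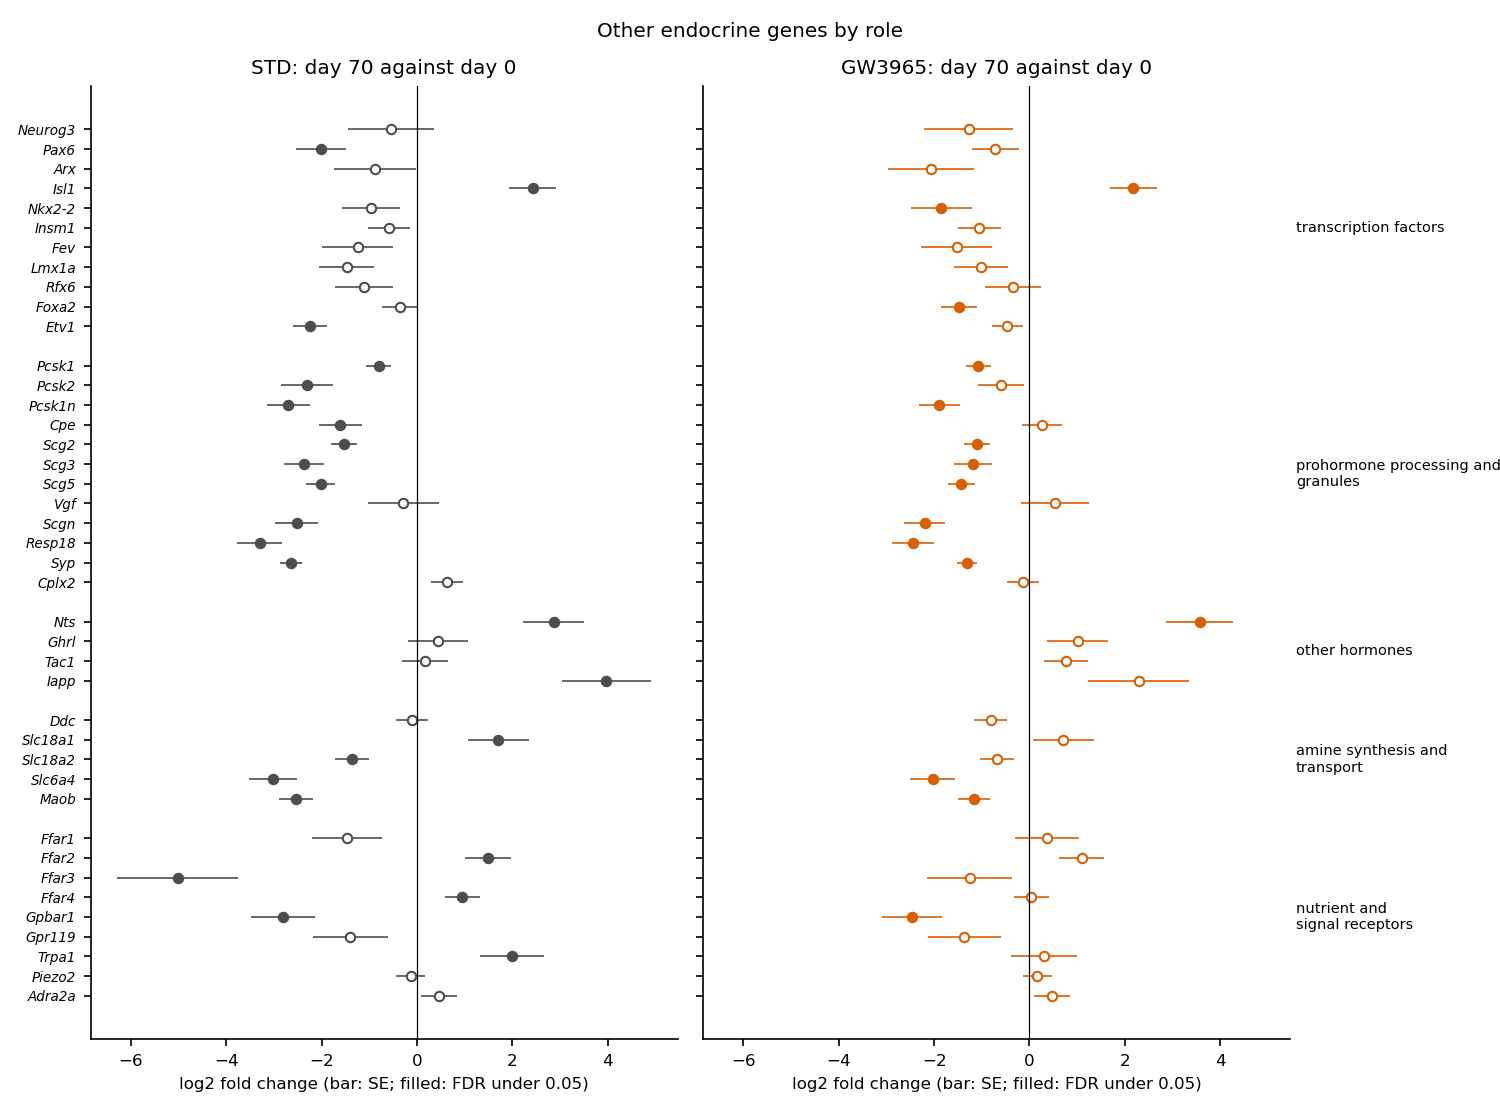
Log2 fold change of day 70 against day 0 (horizontal axis, bars are SE) for 41 other endocrine genes ordered by role, STD left and GW3965 right. Filled points passed an FDR of 0.05, and the block of prohormone processing and granule genes has filled points on the lower side only.

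Several of these genes are also expressed by other cells of the colon wall, and markers of such cells moved at the same time. Of 11 enteric neuron genes tested, 9 were lower at day 70 in STD, where 13.7% of all genes were, and 5 in GW3965, where 6.82% were. None of the 11 was higher. Their summed level was 92.2 to 154 CPM at day 0 and 36.0 to 56.9 CPM at day 70 in STD, and 110 to 189 CPM and 40.9 to 185 CPM in GW3965. Smooth muscle genes were lower at day 70 for 6 of 6 in STD and 1 of 6 in GW3965, with summed levels of 5922 to 16730 CPM at day 0 and 1202 to 2562 CPM at day 70 in STD, and 3891 to 9947 CPM and 2116 to 5814 CPM in GW3965. Syp, Pcsk2 and Etv1, the endocrine-list genes higher in GW3965 than STD at day 70, were called beside 3 enteric neuron genes that were also higher in GW3965. Replicate 1 of GW3965 day 70 had the highest neuron sum of its group, 185 CPM against 40.9 and 93.5 CPM. The part of neurons and muscle in the members' values was not tested.

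Tph1 is also made by mast cells and Cck and Sst by neurons. Of 10 mast cell genes tested, 5 were higher and 1 lower at day 43 in STD, where 30.8% of all genes were higher and 24.2% lower. The summed level of the mast cell genes was 43.6 to 61.2 CPM at day 0 and 120 to 399 CPM at day 43, where Tph1 was at its lowest. At day 70, 3 were higher and 1 was lower in STD, and 3 were higher in GW3965, with sums of 37.5 to 79.6 CPM and 40.5 to 60.6 CPM. The 8 epithelium genes had none lower and 1 higher in STD at day 70 and none called in GW3965, with summed levels of 8336 to 18630 CPM and 2879 to 10200 CPM against 6503 to 12300 CPM and 8371 to 12990 CPM at day 0. At day 43, 5 of these 8 were lower in STD and 2 in GW3965, beside 24.2% and 19.3% of all genes. Among the other epithelial cell types at day 70, 4 of 8 colonocyte genes were lower in STD, and in GW3965 5 were lower and 1 was higher. Of 8 goblet genes 3 were lower and 2 higher in STD and 3 lower in GW3965, and of 7 tuft genes 1 was lower and 1 higher in STD and 1 higher in GW3965. Of all genes at day 70, 13.7% were lower and 16.7% higher in STD, and 6.82% and 14.7% in GW3965.

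Across the 26 libraries, the members' log2 CPM followed each other to different degrees. Of their 45 pairs, 37 had a Pearson r above 0, with a median of 0.52 and a range from -0.54 to 0.91, as a description over libraries that share groups and ribosomal percentage. Gcg and Pyy were the closest pair. The 10 genes whose levels were most like the mean of the members were Acp5 (r = 0.90, n = 26), 2010003K11Rik, Slc16a5, Zg16, Hsd17b2, Sult1b1, Cldn15, Cyp4f16, P2rx4 and Clcn2, the last at 0.86. Zg16, which is on the goblet list, was also the gene most like Insl5 (0.94), followed by Sult1b1 and Tnni1. Chgb was most like Cnnm4 (0.96), Zbtb7b and Atp2a3, Chga like Abcb1a (0.90), Chgb and Ush1c, and Tph1 like Kcnk5 (0.90), Hsd11b2 and Chp2. Gcg and Pyy named each other first, followed by Cldn15 and Ccl28 for Gcg and by Comtd1 and Insl5 for Pyy. Sst was most like Vkorc1 (0.89), BC005624 and Pcsk1n, and Sct like Cybc1 (0.89), Tspan13 and Aup1. Cck had Slpi (0.88), Ada and Gstp3 as its nearest genes. Neurod1 had the weakest best match, Galntl6 at 0.79, ahead of Slc35a1 and Lgals4.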

How the data were processed

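RNA-seq libraries of 26 colon biopsies were analysed. The authors quantified reads with Kallisto on the GRCm38 cDNA (versions not given in the sources used here) and deposited estimated counts and TPM per transcript. Transcripts (119414 per file) were matched by identifier to GENCODE vM21 (97.8%) and summed to 35975 genes. Unmatched transcripts held 0.615 to 0.999% of the counts of a library. Rounded sums were filtered with filterByExpr, scaled with TMM and fitted over 8 groups in edgeR 4.0.16 (R 4.3.3) with the quasi-likelihood F-test and an FDR threshold of 0.05. The study corrected for the percentage of ribosomal RNA, with interactions. Here the share of counts on ribosomal protein genes, as an additive term, stood in for it in diet contrasts. Time contrasts did not, as it follows the day. DESeq2 1.42.0 was an alternative. CPM are TMM-scaled, and TPM are the authors' deposited values. Log2 CPM for correlations used a prior count of 2. The fits were tested on simulated data first.

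Members and lists were chosen with earlier results of these data known. All members are named. Other lists give counts and up to 5 genes per comparison by smallest p, unless stated. The likeness rule takes 10 genes nearest to the mean of the members and 3 nearest to each. Alternatives were the ribosomal term, DESeq2 size factors and Wald test, epithelium scaling, no filter, a replicate block, 2 groups only, controls of matched diet days, and leaving out the library of low RNA integrity or each library in turn. One library was grouped by its title against its diet label. One gene is not reported here.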

Additional observations from a re-analysis of the deposited data

Results flagged for a closer look

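One result stood out among the 20 sets of 4 day 0 libraries that were tested for an outlying sample with Dixon's criterion, which chance meets in about 1 in 20. Chga in GW3965 day 0 had a highest library at 51.2 CPM, replicate 1 of 22 diet days, while the other 3 were at 31.4 to 33.5 CPM. The same library was also the highest of its group for Chgb (107 CPM), Gcg (24.8 CPM), Pyy (148 CPM), Insl5 (69.8 CPM), Sct (3.54 CPM), Sst (9.83 CPM) and Tph1 (14.4 CPM). This was not particular to the members. The library was also highest in the summed epithelium genes (12990 CPM against 8371 to 9505), colonocyte genes (6260 against 2608 to 4204) and goblet genes (8352 against 3470 to 4587). In smooth muscle genes it was the lowest (3891 CPM against 7916 to 9947). Without it, the fall of Chga in GW3965 at day 70 had a log2 fold change of -0.90 and an adjusted p of 0.14 (edgeR), and the day 70 count of called members was 3.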

How the results depend on the processing

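The count of called members was compared with every alternative. Shares of all genes called under an alternative, or without a library, are not given, so counts under them have no such share beside them. With the ribosomal term, the day 43 against day 0 counts of 5 (STD) and 4 (GW3965), the day 43 against day 22 count of 3 in STD and the day 70 against day 43 counts of 4 each all became 0, and Chga in STD at day 43 against day 0 (0.0079), Chgb in STD at day 43 against day 22 (0.20) and Chgb in STD at day 70 against day 43 (-0.76) changed sign. The term and the day move together, and which of them carries the difference was not tested. Epithelium scaling gave 1 for STD day 43 against day 22 and 2 for each GW3965 day against day 0. A fit of 2 groups only gave 1 for STD day 43 against day 22, 6 for GW3965 day 22, 2 for GW3965 day 70 against day 0 and 1 against day 43. For GW3965 day 22 against day 0, whose count was 1, leaving out the library of low RNA integrity gave 3, the DESeq2 Wald test 3, and controls of the same diet days 0. The causes of these moves were not tested.

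Leaving out 1 library of the groups compared gave 3 to 6 for STD day 70 against day 0, 1 to 2 for STD day 43 against day 22, 0 to 2, 2 to 5 and 2 to 7 for GW3965 days 22, 43 and 70 against day 0, and 2 to 8 for GW3965 day 70 against day 43. Calls of single genes were kept in 167 such fits and lost in 46, and under the other alternatives 212 were kept, 51 lost and 3 changed sign. Numbers shared by samples did not mark pairs (mean correlation of deviations -0.07 over 13 pairs, and 0 of 18 samples closest to their own number), and with a replicate block the counts were 5 and 4 at day 70 and 4 each at day 43. Diet and interaction counts were 0 in every alternative run. Low counts limit Neurod1 (5 to 82 per library), Cck and Sct.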
